A study of Mus musculus with 4 samples.

Results

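A group of 10 mouse genes that are expressed from a single parental allele and that act on growth was followed through hearts of Carm1 mutant and wild-type mice, to compare those expressed from the maternal allele with those expressed from the paternal allele. They were taken by gene symbol: 10 of the 54752 rows of the count table carried one of the symbols, and all 10 were among the 15283 genes with enough counts to test. The paternally expressed genes were Mest, Igf2, Dlk1, Peg3, Plagl1 and Ndn (6 genes), and the maternally expressed genes were H19, Meg3, Cdkn1c and Grb10 (4 genes). The series measured RNA by sequencing in whole hearts at postnatal day 14, in 2 libraries labelled Carm1 mutant and 2 labelled wild type (WT). Carm1 encodes an enzyme that adds methyl groups to arginines of histones and of proteins that activate transcription. Not given in the sources used here were the mutant allele, any Cre driver, the strain, and whether a library is 1 animal or a pool. P-values therefore set the difference between groups against the spread of these libraries only, estimated in part across genes. That spread may be technical.

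In genomic imprinting, DNA methylation laid down in the egg or the sperm marks imprinting control regions, and genes near such a region are then transcribed from the maternal or the paternal chromosome only. Many paternally expressed genes promote growth of the fetus and many maternally expressed ones restrain it. A set of these genes is highly expressed before birth and is shut down together in many organs, the heart included, as growth slows after birth. The zinc finger protein ZFP57 keeps methylation at control regions through the cell divisions of the early embryo by binding a methylated hexamer, with TRIM28 as its partner.

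The sequences below are the windows around transcription starts of the gene with the clearest difference between the groups, Mest, and of the maternally expressed gene with the largest fold change, Meg3. They run from 250 bases before to 50 bases after a RefSeq start on GRCm38.p6, 5′ to 3′ on the gene's strand, and capitals mark the ZFP57 hexamer TGCCGC or its reverse complement GCGGCA. The first Mest window is chr6:30737800-30738099 (plus strand), the second is chr6:30733256-30733555 (plus strand) at an upstream start, and the Meg3 window is chr12:109540746-109541045 (plus strand).
Mest, downstream start: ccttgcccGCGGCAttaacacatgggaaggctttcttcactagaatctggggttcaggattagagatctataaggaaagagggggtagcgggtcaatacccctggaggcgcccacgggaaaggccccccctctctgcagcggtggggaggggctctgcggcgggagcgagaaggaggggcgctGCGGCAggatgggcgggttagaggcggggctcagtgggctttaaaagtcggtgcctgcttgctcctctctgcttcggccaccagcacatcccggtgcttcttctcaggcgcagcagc
Mest, upstream start: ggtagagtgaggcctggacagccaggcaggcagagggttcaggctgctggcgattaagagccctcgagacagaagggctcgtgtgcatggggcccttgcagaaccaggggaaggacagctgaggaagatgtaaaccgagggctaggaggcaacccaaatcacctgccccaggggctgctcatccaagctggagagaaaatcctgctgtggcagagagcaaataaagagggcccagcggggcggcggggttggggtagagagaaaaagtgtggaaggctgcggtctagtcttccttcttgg
Meg3: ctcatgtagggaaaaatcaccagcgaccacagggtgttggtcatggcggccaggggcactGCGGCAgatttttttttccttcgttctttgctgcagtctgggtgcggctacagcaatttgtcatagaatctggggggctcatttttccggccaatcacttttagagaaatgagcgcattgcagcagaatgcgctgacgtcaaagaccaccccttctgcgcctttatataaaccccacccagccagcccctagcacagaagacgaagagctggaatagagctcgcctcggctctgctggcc
The downstream Mest window held the hexamer 2 times and 17 CpG dinucleotides, the upstream one held it 0 times with 8 CpG, and the Meg3 window shown held it 1 time with 13 CpG. Another Meg3 window, at a downstream start (chr12:109545148-109545447), held it 0 times with 1 CpG. Over 32851 RefSeq windows of the same length, 11.6% held the hexamer at least 1 time, 1.53% held it 2 or more times, and the median number of CpG was 7. Windows were found for 8 of the 10 genes, 15 windows in all, and 6 of the 15 held the hexamer, of which 2 are Mest windows shifted by 3 bases that hold the same pair of hexamers; H19 and Cdkn1c were not matched. A match of letters is a description of the window and does not show that a protein binds there.

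Mest and H19 are also hosts of microRNAs, miR-335 in an intron of Mest and miR-675 in an exon of H19, whose mature sequences from RefSeq (GRCm38.p6) are given here with the seed, bases 2 to 8, in capitals.
miR-335-5p: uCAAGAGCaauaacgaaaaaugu
miR-335-3p: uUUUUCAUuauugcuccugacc
miR-675-5p: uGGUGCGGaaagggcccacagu
miR-675-3p: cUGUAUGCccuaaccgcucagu
No seed was shared among the 4. The rows of both microRNA genes held 0 counts in all 4 libraries, and mature microRNAs were not measured by these libraries.

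Library totals were 22217442 and 11677604 counts in Carm1 mutant replicates 1 and 2 and 21719161 and 20778420 in WT replicates 1 and 2. Carm1 itself had 35.8 and 31.8 CPM (counts scaled to a common library total, with TMM factors) in the mutant libraries against 45.9 and 52.4 CPM in WT, with a log2 fold change of -0.54 (SE 0.19) and an edgeR adjusted p of 0.114; a sum over the whole gene does not show what an allele removes. Xist, which coats the silenced X chromosome in females, had 324 and 289 CPM in the mutant libraries against 0.686 and 0.766 CPM in WT, and 4 Y-linked genes together had 7 and 0 counts in the mutant libraries against 1769 and 2236 in WT. Genotype and sex therefore cannot be told apart in any comparison below. All 10 cardiomyocyte markers were detected in every library, with summed levels of 46307 and 49796 CPM in the mutant libraries against 91495 and 77893 CPM in WT. Of the 10, 1 was lower at an edgeR adjusted p under 0.05 and 9 did not pass (median log2 fold change -0.82). With library totals alone as the scale 0 passed and the median was -0.41. With a replicate block 0 passed, with no filter on low counts 6 were lower, and with the DESeq2 Wald test 9 were lower. Both mutant libraries lay below both WT libraries for 9 of the 10, beside 28.7% of all tested genes. The median ran from -0.89 to -0.71 with each library left out in turn. In whole hearts, fewer cells of a type and less RNA per cell cannot be told apart.

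Mest was the only one of the 10 genes that passed the test, and it rose more than 3-fold. Of the 6 paternally expressed genes 1 rose and 5 did not pass, and of the 4 maternally expressed genes 0 rose or fell; a gene is called where its edgeR adjusted p (FDR, over all tested genes) is under 0.05. Among all tested genes 7.37% were called, 2.79% higher and 4.58% lower in the mutant hearts. Both mutant libraries lay above both WT libraries for 5 of the 10 genes, namely Mest, Ndn, H19, Meg3 and Cdkn1c, and for 30.3% of all tested genes. Both lay below for 0 of the 10, against 28.7% of all tested genes.

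**Figure D1:**
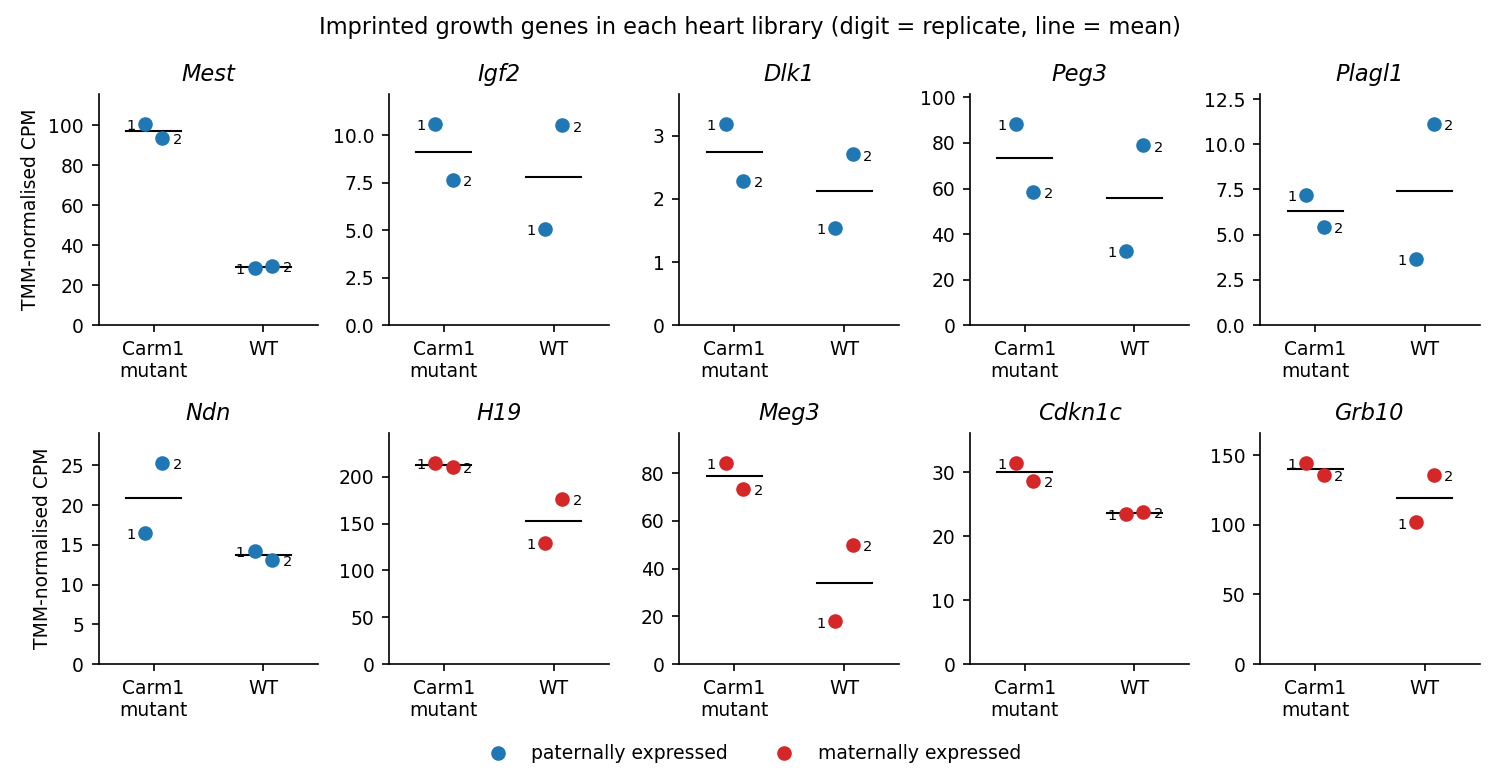
Level of each of the 10 genes (y axis, TMM-normalised CPM, linear from 0) in the 2 Carm1 mutant and 2 WT libraries; each point is a library with its replicate number and each line a group mean (blue, paternally expressed; red, maternally expressed). The mutant points of Mest, Ndn, H19, Meg3 and Cdkn1c lie above both WT points. WT replicate 1 is the lowest of the 4 libraries in every gene except Ndn, though only just below WT replicate 2 in Mest and Cdkn1c.

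Mest (ENSMUSG00000051855, GRCm38 chromosome 6, 30723547 to 30748465, plus strand) encodes a protein of the alpha/beta hydrolase fold in the endoplasmic reticulum and is abundant in mesodermal tissues of the embryo. It had 101 and 94.0 CPM in Carm1 mutant replicates 1 and 2, against 28.8 and 29.8 CPM in WT replicates 1 and 2 (2529 and 1276 counts against 504 and 584). The groups stood far apart and the libraries of each group lay close together. The mean was 97.4 ± 4.9 CPM in mutant hearts and 29.3 ± 0.71 CPM in WT hearts (SD, n = 2 each), a 3.32-fold difference (log2 fold change 1.73, SE 0.19, 95% interval 1.30 to 2.17, edgeR adjusted p = 0.00647). By adjusted p it ranked 39th among the tested genes. It was called in all 11 alternative fits planned, with log2 fold changes from 1.68 to 2.12. Of its 3945 annotated exon bases 912 overlap exons of Copg2 on the other strand, and it was left unstated whether counting used strand, so reads there cannot be told apart. Copg2 itself had 17.1 and 16.6 CPM in the mutant libraries against 25.8 and 23.3 CPM in WT (log2 fold change -0.55, SE 0.18, edgeR adjusted p = 0.107), below WT in both mutant libraries.

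The other paternally expressed gene whose groups did not overlap was Ndn (ENSMUSG00000033585, chromosome 7, 62346569 to 62350262, plus strand), which encodes necdin, a MAGE family protein that restrains proliferation in neurons and other cells. It had 16.5 and 25.3 CPM in mutant replicates 1 and 2, against 14.2 and 13.1 CPM in WT. Mutant replicate 2 stood above the other 3 libraries, which lay between 13.1 and 16.5 CPM. Its log2 fold change came to 0.60 (SE 0.24, 95% interval 0.04 to 1.17, edgeR adjusted p = 0.157). Without mutant replicate 2 it was 0.26.

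In the remaining paternally expressed genes the groups overlapped, and WT replicate 1 was the lowest library for each. Igf2 (ENSMUSG00000048583, chromosome 7, 142650766 to 142666816, minus strand), the fetal insulin-like growth factor, had 10.6 and 7.66 CPM in mutant hearts against 5.09 and 10.5 CPM in WT (log2 fold change 0.23, SE 0.35, edgeR adjusted p = 0.708). Its 95% interval ran from -0.58 to 1.04, so a change of the size seen in Mest lies outside it. Of its 5723 exon bases 3596 are shared on the same strand with Gm49394, which had 0 counts in every library; the rule for reads in shared exons was not stated, so the level of Igf2 is uncertain.

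Peg3 (ENSMUSG00000002265, chromosome 7, 6703892 to 6730431, minus strand), a zinc finger transcription factor, had 88.5 and 58.5 CPM in mutant hearts against 32.8 and 79.0 CPM in WT (log2 fold change 0.40, SE 0.39, edgeR adjusted p = 0.548). Plagl1 (ENSMUSG00000019817, chromosome 10, 13060504 to 13131694, plus strand), the zinc finger factor ZAC1 that activates other imprinted genes, had 7.22 and 5.45 CPM against 3.66 and 11.1 CPM (-0.22, SE 0.46, edgeR adjusted p = 0.793). Both mutant libraries lay between the WT libraries in Plagl1, whereas in Peg3 mutant replicate 1 stood above both WT libraries and mutant replicate 2 between them. Dlk1 (ENSMUSG00000040856, chromosome 12, 109452823 to 109463336, plus strand), a Notch-like membrane protein that restrains adipocyte formation, was the scarcest of the 10, with 3.19 and 2.28 CPM in mutant hearts against 1.54 and 2.71 CPM in WT (0.38, SE 0.39, edgeR adjusted p = 0.569). That was 80 and 31 counts in mutant hearts and 27 and 53 counts in WT hearts. The SE of Dlk1 was close to that of Peg3, which had far more counts.

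Among the maternally expressed genes Meg3 had the largest fold change without passing the test. Meg3 (ENSMUSG00000021268, chromosome 12, 109541001 to 109571726, plus strand) is a long noncoding RNA on the same imprinted locus as Dlk1. It had 84.3 and 73.3 CPM in mutant replicates 1 and 2, against 18.0 and 50.1 CPM in WT replicates 1 and 2. The groups did not overlap, but the WT libraries differed from each other 2.79-fold. The means were 78.8 ± 7.8 CPM in mutant hearts and 34.0 ± 22.7 CPM in WT hearts (SD, n = 2 each), with a log2 fold change of 1.21 (SE 0.41, 95% interval 0.26 to 2.16, edgeR adjusted p = 0.107). The value rested on WT replicate 1: the log2 fold change was 0.64 without it and 2.10 without WT replicate 2, and Meg3 was called in both of those fits, where the mutant pair alone sets the spread. A transcript with 99.881% identity to Meg3 over 842 bases, Gm27000, had at most 5 counts in any library. Meg3 was also called without mutant replicate 2 (1.30) and by the Wald test of DESeq2 (1.20, adjusted p = 0.0129).

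H19 (ENSMUSG00000000031, chromosome 7, 142575529 to 142578143, minus strand), a noncoding RNA that restrains growth, was the most abundant of the 10 genes. It had 215 and 210 CPM in mutant hearts against 129 and 176 CPM in WT (log2 fold change 0.48, SE 0.22, edgeR adjusted p = 0.211). The mutant libraries were nearly equal and both exceeded WT replicate 2, the higher of the WT pair; without WT replicate 1 the log2 fold change was 0.25. Cdkn1c (ENSMUSG00000037664, chromosome 7, 143458339 to 143461050, minus strand) encodes p57, an inhibitor of cyclin-dependent kinases. It had 31.5 and 28.6 CPM in mutant hearts against 23.5 and 23.8 CPM in WT (0.35, SE 0.18, 95% interval -0.07 to 0.76, edgeR adjusted p = 0.253). With each library left out in turn its log2 fold change ran from 0.27 to 0.40, a narrow range like that of Mest, 1.68 to 1.77. Grb10 (ENSMUSG00000020176, chromosome 11, 11930508 to 12038683, minus strand), an adaptor that dampens signalling from the insulin and IGF1 receptors and is maternally expressed outside neurons, had 144 and 136 CPM in mutant hearts against 102 and 136 CPM in WT (0.24, SE 0.22, edgeR adjusted p = 0.514). Its groups overlapped, mutant replicate 2 lying just under WT replicate 2.

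**Figure D2:**
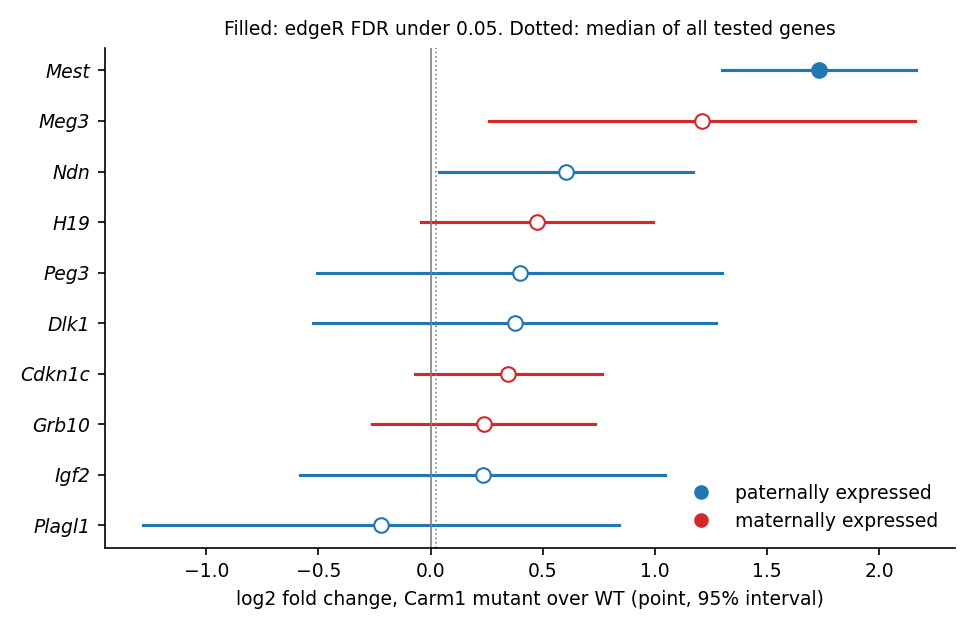
Log2 fold change of each gene (x axis, Carm1 mutant over WT, edgeR) with its 95% interval as a bar; filled points passed an adjusted p of 0.05 and the dotted line is the median of all tested genes, 0.02. Only Mest is filled, at 1.73, and the blue (paternally expressed) and red (maternally expressed) points are interleaved.

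Maternally and paternally expressed genes had interleaved fold changes. The median log2 fold change was 0.39 over the 6 paternally expressed genes and 0.41 over the 4 maternally expressed genes, beside 0.02 over all tested genes. The values ran from -0.22 in Plagl1 to 1.73 in Mest among paternally expressed genes, and from 0.24 in Grb10 to 1.21 in Meg3 among maternally expressed genes. Fold changes were above 0 for 5 of the 6 and for 4 of the 4, beside 51.6% of all tested genes. Genes are not replicates, so these medians carry no test. Scaling by library totals alone moved the median of all genes to 0.41; relative to that median Mest stood at 1.71, Meg3 at 1.14 and Plagl1 at -0.29, and Plagl1 was above 0 (0.12) before that median was taken off.

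On 2 loci a paternally and a maternally expressed gene lie side by side under shared control regions, and their counts were compared within each library. Igf2 made up 4.70% and 3.52% of Igf2 plus H19 counts in mutant replicates 1 and 2 (exact 95% binomial intervals 4.17 to 5.29% and 2.88 to 4.24%), against 3.79% and 5.63% in WT replicates 1 and 2 (3.05 to 4.64% and 4.90 to 6.42%). These shares overlapped between the groups, with means of 4.11 ± 0.84% in mutant and 4.71 ± 1.30% in WT hearts (SD, n = 2 each). Dlk1 made up 3.65% and 3.02% of Dlk1 plus Meg3 counts in mutant hearts (2.90 to 4.52% and 2.06 to 4.26%), against 7.92% and 5.13% in WT hearts (5.28 to 11.3% and 3.87 to 6.66%). Here both mutant shares were below both WT shares, with means of 3.33 ± 0.44% in mutant and 6.52 ± 1.97% in WT hearts. With 2 libraries a group, the smallest p that an exact permutation test (two-sided) allows is 0.333, which is its value for the Dlk1 share; for the Igf2 share the exact p was 0.667. The intervals cover counting error only.

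Further along the Dlk1 and Meg3 locus, genes chosen for their place beside Meg3 after their values were seen had higher values in mutant hearts without passing the test. Rian, a maternally expressed noncoding RNA, had 16.3 and 17.3 CPM in mutant hearts against 8.58 and 11.3 CPM in WT (log2 fold change 0.75, edgeR adjusted p = 0.0743). Mirg, a maternally expressed host of microRNAs, had 2.47 and 2.72 CPM against 1.83 and 1.63 CPM (0.58, adjusted p = 0.299). Rtl1, a paternally expressed gene derived from a retrotransposon and transcribed against the strand of its maternally expressed neighbours, had 2.91 and 3.39 CPM against 1.20 and 1.23 CPM (1.36, adjusted p = 0.0531). It was left unstated whether counting used strand, so reads from the other strand of Rtl1 may be among these. In all 3 both mutant libraries lay above both WT libraries, as they did for 30.3% of all tested genes.

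Per kilobase of annotated exon, H19 was the most abundant gene in both groups and Dlk1 the least. In mutant hearts the order, as mean CPM per kb, was H19 (86.4), Mest (24.7), Grb10 (15.4), Cdkn1c (14.7), Ndn (5.66), Peg3 (5.52), Meg3 (4.36), Igf2 (1.60), Plagl1 (0.810) and Dlk1 (0.484). In WT hearts it was H19 (62.1), Grb10 (13.1), Cdkn1c (11.6), Mest (7.43), Peg3 (4.19), Ndn (3.70), Meg3 (1.88), Igf2 (1.36), Plagl1 (0.946) and Dlk1 (0.376). Mest thus stood next to H19 in mutant hearts and below Grb10 and Cdkn1c in WT hearts, with no overlap of its libraries with those of either neighbour in either group. The libraries of Grb10 and Cdkn1c overlapped in both groups, as did those of Ndn, Peg3 and Meg3 in mutant hearts. In WT hearts Peg3 overlapped with Ndn and with Meg3, and Meg3, Igf2, Plagl1 and Dlk1 each overlapped with the next in the order. The same counts were also divided by only the exon bases that no other gene shares. That put Cdkn1c (21.3 and 16.7 CPM per kb in mutant and WT hearts) above Grb10 and left Mest (32.1 and 9.67) in the same places. The shorter length moved Igf2 most, to 4.50 and 3.85 CPM per kb, below Meg3 (4.75) in mutant hearts but above Ndn (3.70) and Meg3 (2.05) in WT hearts. Reads in shared bases may remain in the counts, so these levels may be too high and this order is uncertain.

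The ratio of WT replicate 2 to WT replicate 1 differed among the genes and tended to be higher in long ones. This ratio has a direction and does not measure the size of the spread. In Mcts2, a short gene outside the 10 with 912 exon bases, it was 0.580. WT replicate 2 exceeded WT replicate 1 by 3.04-fold in Plagl1, 2.79-fold in Meg3, 2.41-fold in Peg3 and 2.07-fold in Igf2, whereas the ratio was 1.03 in Mest, 1.01 in Cdkn1c and 0.922 in Ndn. Annotated exons span 7819 bases in Plagl1, 18089 in Meg3, 13324 in Peg3 and 5723 in Igf2, against 3945 in Mest, 2039 in Cdkn1c and 3694 in Ndn. Grb10, with 9089 bases, had a ratio of only 1.34, H19, with 2460 bases, had 1.37, and Dlk1, with 5657 bases, had 1.75. Spearman's rho between exon length and this ratio was 0.73 over the 10 genes and 0.45 over 15280 tested genes with a length, given as descriptions because the points share the same 2 libraries. Mutant replicate 2 stood at 0.662 to 1.54 times mutant replicate 1.

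**Figure D3:**
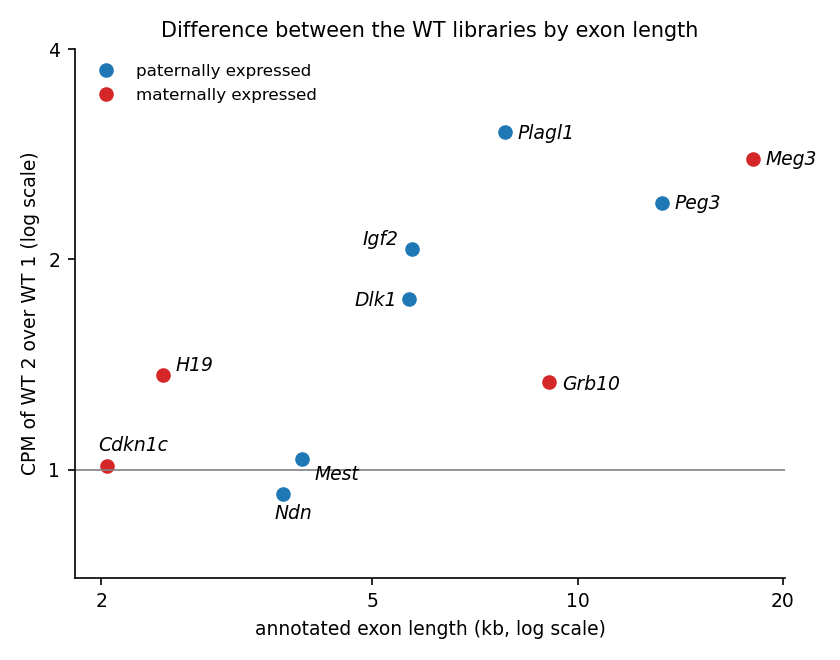
Ratio of WT replicate 2 to WT replicate 1 in CPM (y axis, log scale) against annotated exon length in kb (x axis, log scale) for the 10 genes (blue, paternally expressed; red, maternally expressed). Mest, Ndn and Cdkn1c lie near a ratio of 1 and Plagl1, Meg3 and Peg3 lie above 2.4.

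Leaving out WT replicate 1 changed the direction of Peg3 and Igf2. Without it the log2 fold change was -0.11 in Peg3, -0.20 in Igf2 and -0.81 in Plagl1, and Plagl1 was called lower (edgeR adjusted p = 0.0432). Without WT replicate 2 it was 1.13 in Peg3, 0.82 in Igf2 and 0.77 in Plagl1, and Meg3, H19, Peg3 and Igf2 were called higher beside Mest. The direction of Igf2, Peg3 and Plagl1 was thus set by which WT library was kept, and Igf2 also fell below 0 (-0.03) without mutant replicate 1. The median of the paternally expressed genes was -0.04 without WT replicate 1 and 0.82 without WT replicate 2.

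**Figure D4:**
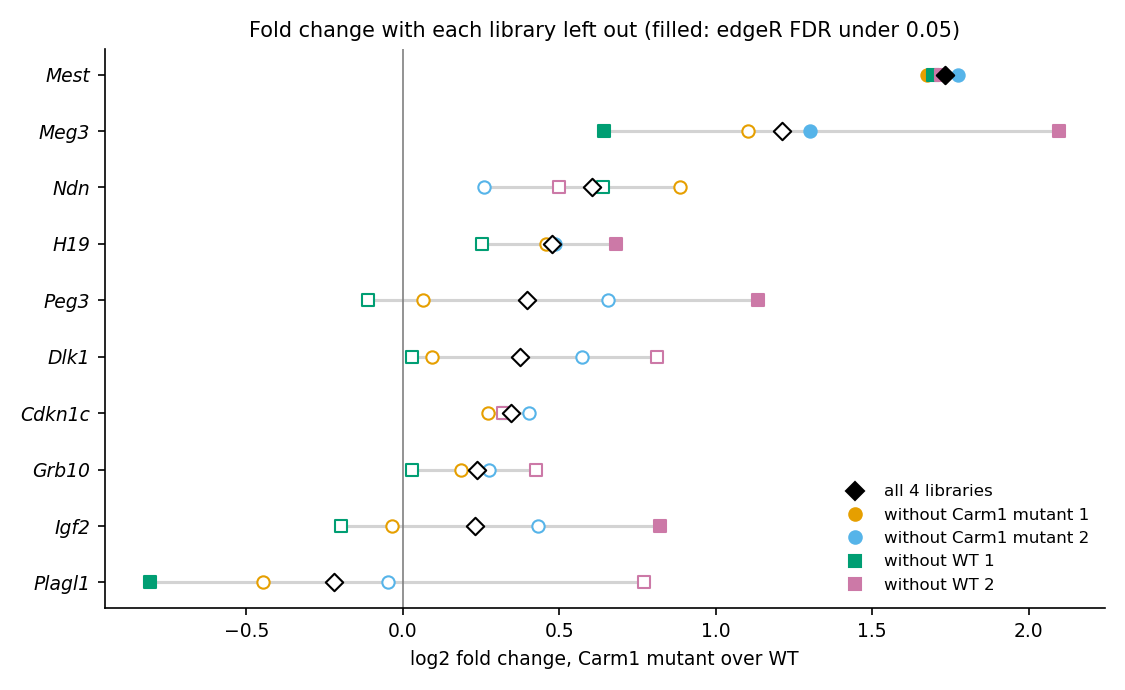
Log2 fold change (x axis, Carm1 mutant over WT) of each gene with all 4 libraries (diamond) and with each library left out in turn; filled symbols passed an edgeR adjusted p of 0.05. The 5 symbols of Mest stay between 1.68 and 1.77, while those of Meg3 run from 0.64 to 2.10 and those of Plagl1 from -0.81 to 0.77.

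Marker lists of other cell types and of dividing cells were read beside these values, and among them the mitosis genes had the most calls. Among all tested genes 2.79% rose and 4.58% fell. Of 13 fibroblast markers 2 rose (Postn and Pi16), 0 fell and 11 did not pass, and their summed level was 6616 and 7084 CPM in mutant hearts against 4349 and 4858 CPM in WT. The number that rose was 10 with library totals, 1 without mutant replicate 1, 0 without mutant replicate 2, 8 without WT replicate 1 and 9 without WT replicate 2. Of 10 mitosis genes 9 rose and 1 did not pass, with sums of 133 and 144 CPM in mutant hearts against 29.6 and 39.5 CPM in WT. Sums of 10 mural cell markers were 2714 and 2846 CPM against 2318 and 2733 CPM, and those of 10 endothelial markers were 2762 and 2419 CPM against 2127 and 2325 CPM; 0 of either list passed. Adipocyte markers summed to 0.160 and 0.0736 CPM in mutant hearts against 3.03 and 0.460 CPM in WT, with 2 of the 7 at 0 in every library. Schwann cell and neuronal markers, where Ndn and Dlk1 can be expressed, summed to 27.5 and 25.3 CPM in mutant hearts against 20.6 and 18.7 CPM in WT. Of these 8 markers 6 were tested and 0 were called. Epicardial markers summed to 68.0 and 54.1 CPM against 70.1 and 68.3 CPM with 1 of 8 called (Wt1, higher). The Wt1 call was lost without either mutant replicate, and 3 of the 8 were called lower without mutant replicate 1. Leukocyte markers summed to 204 and 228 CPM against 206 and 165 CPM with 0 called. Erythroid markers summed to 539 and 863 CPM in mutant hearts against 711 and 506 CPM in WT. Thymus and skeletal muscle markers summed to 1091 and 1390 CPM against 2395 and 1497 CPM. In both of these lists 0 were called. The part of these shifts in the level of Mest or of the other genes was not tested.

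The tested genes nearest to Mest by Euclidean distance between gene-centred log2 CPM over the 4 libraries were Gtse1 (distance 0.09), Gm5518 (0.10) and Sftpb (0.12). Gtse1, a microtubule-binding protein of G2 phase that restrains p53, had 6.86 and 5.96 CPM in mutant hearts against 1.83 and 1.99 CPM in WT (log2 fold change 1.75, edgeR adjusted p = 0.0175). Sftpb, a surfactant protein of the lung, stood at 0.439 and 0.442 CPM against 0.0572 and 0.0511 CPM, which is a few counts. Nearest to Meg3 were Zfand4 (0.08), Gm38309 (0.14) and Gm12096 (0.14). Zfand4 had 8.69 and 7.88 CPM in mutant hearts against 1.83 and 5.57 CPM in WT. With 4 libraries many genes share a profile.

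Among other imprinted genes 1 rose and 0 fell, where 2.79% of all tested genes rose and 4.58% fell. A list of 32 further paternally expressed genes, some of them imprinted only in brain or placenta, had 25 tested, of which 1 rose, 0 fell and 24 did not pass (median log2 fold change -0.01). Of 28 further maternally expressed genes 22 were tested and 0 passed (median -0.12). The most abundant of these per kilobase of exon was Cd81, a tetraspanin, with 303 and 341 CPM in mutant hearts against 392 and 305 CPM in WT (means of 112 and 121 CPM per kb). Next per kilobase was Nap1l4, a histone chaperone, with 75.6 and 79.7 CPM against 154 and 114 CPM (25.1 and 43.3 CPM per kb, log2 fold change -0.79, edgeR adjusted p = 0.0659). Igf2r, the receptor that clears IGF2, is longer, with 110 and 118 CPM in mutant hearts against 97.2 and 141 CPM in WT. In mean CPM it stood above Nap1l4 in mutant hearts (114 against 77.7) but below it in WT hearts (119 against 134). Per kilobase it was below Nap1l4 in both groups (12.3 and 12.8 CPM per kb). The gene that rose was Zfp264, a zinc finger gene of the Peg3 domain that is annotated as a transcribed unprocessed pseudogene. It had 1.95 and 2.87 CPM in mutant hearts and 0 counts in both WT hearts. Against a floor of 3 counts over the WT group it was at least 28.1-fold higher (edgeR adjusted p = 0.0103). Zinc finger genes have similar copies, and how reads that match several were assigned was not stated, so this value is uncertain.

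**Figure D5:**
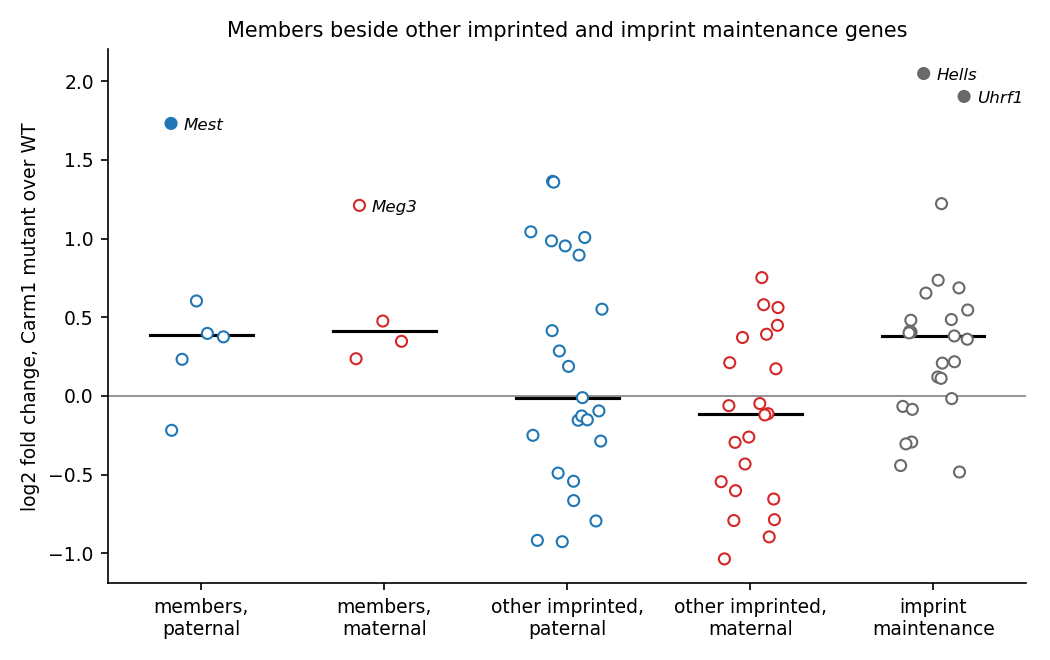
Log2 fold change (y axis, Carm1 mutant over WT) of each tested gene in 5 lists, with list medians as lines and genes called by edgeR filled; Zfp264, with 0 counts in WT, is left out of the points. Mest is filled among the members and Uhrf1 and Hells among the imprint control genes (labelled imprint maintenance). The medians of the further imprinted genes are -0.01 (paternally expressed) and -0.12 (maternally expressed).

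Of 28 genes listed for imprint control, 25 were tested, 2 rose, 0 fell and 23 did not pass (median log2 fold change 0.38). The list is broad and includes Tet1, Tet2, Tet3, Rbbp4 and Cnot1. Among all tested genes 2.79% were called higher. The mitosis genes above had 9 of 10 called higher (median 2.02), and a link to them was not tested. The 2 imprint genes that rose act with the maintenance DNA methyltransferase during DNA replication. Uhrf1, which recognises hemimethylated DNA, had 8.26 and 11.7 CPM in mutant hearts against 1.94 and 3.32 CPM in WT (log2 fold change 1.90, SE 0.33, edgeR adjusted p = 0.0206). Hells, a chromatin remodeller, had 2.75 and 3.39 CPM against 0.858 and 0.613 CPM (2.05, SE 0.40, edgeR adjusted p = 0.0269), and it was not called without mutant replicate 2. Zfp57, chosen after its values were seen because its hexamer is shown above, had 10.5 and 11.0 CPM in mutant hearts against 3.03 and 6.13 CPM in WT (1.22, SE 0.33, edgeR adjusted p = 0.0619).

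Of 33 genes of the IGF and insulin pathway, through which Igf2 and Grb10 act, 25 were tested. Of these 0 rose, 3 fell and 22 did not pass (median log2 fold change -0.06), where 2.79% of all tested genes rose and 4.58% fell. Irs1, the insulin receptor substrate, had 5.03 and 3.83 CPM in mutant hearts against 9.72 and 12.6 CPM in WT (-1.32, SE 0.26, edgeR adjusted p = 0.0274). Grb14, the paralogue of Grb10 that also binds the insulin receptor, had 57.7 and 67.2 CPM against 142 and 113 CPM (-1.03, SE 0.21, edgeR adjusted p = 0.0304), while Grb10 did not pass. Igfbp3, a carrier of circulating IGFs, had 25.3 and 21.6 CPM against 41.1 and 68.1 CPM (-1.22, SE 0.26, edgeR adjusted p = 0.0357). With library totals as the scale the list turned, with 3 higher, 0 lower and a median of 0.30. None of the 3 that fell was called with library totals as the scale or without mutant replicate 2, and Grb14 and Igfbp3 were not called without mutant replicate 1; the log2 fold changes were then between -1.34 and -0.62.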

How the data were processed

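RNA from mouse hearts at postnatal day 14 was sequenced in 4 libraries. Per the submitters' processing notes, FastQC, HISAT2 and the mm10 build were used; not given in the sources used here were versions, the counting program and its rules. The authors deposited a table of raw read counts by gene. GENCODE M21 (GRCm38) gave names for 54723 of 54752 rows, coordinates counted from 1, and exon lengths as the union over transcripts.

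The 15283 genes kept by filterByExpr were scaled by TMM and compared by genotype alone, with 2 residual degrees of freedom, in the quasi-likelihood test of edgeR 4.0.16 under R 4.3.3. P-values were adjusted by Benjamini-Hochberg over all tested genes. Gene distances used log2 CPM with a prior count of 2. Replicates differed beyond counting error, with a chi-square of 11.5 per degree of freedom in the mutant pair and 51.1 in the WT pair. The steps were tested on simulated data.

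The members and lists were chosen with earlier results of these data known. The genes named were the 10 members, Carm1, up to 6 called genes each of the other imprinted, imprint control and IGF pathway lists (the 2 most abundant per kilobase where 0 were called), and the 3 nearest to Mest and to Meg3. Other genes named were chosen after their values were seen. Alternatives were DESeq2 size factors, library totals, no filter on low counts, a filter of 1 CPM in 2 libraries, DESeq2 1.42.0 (Wald test), limma-voom (limma 3.58.1), a replicate block, and leaving out each library.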

Additional observations from a re-analysis of the deposited data

How the results depend on the processing

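Mest was called higher in each of the 11 alternative fits listed under the processing. The number of the 10 genes called higher was 2 (Mest and Meg3) with no filter on low counts, with the DESeq2 Wald test and with the replicate block, and 1 with DESeq2 size factors, library totals, a minimum of 1 CPM and limma-voom; leaving out a library gave 1 to 5 higher and 0 to 1 lower. Counts over all genes were 1126 as reported, 2630 with no filter, 1705 with DESeq2, 1222 with the replicate block and 377 to 5679 with a library left out. Library totals turned Plagl1 to 0.12 and gave 1189 genes higher and 206 lower, against 426 and 700 with TMM. With a library left out, log2 fold changes ran from -0.20 to 0.82 in Igf2, -0.11 to 1.13 in Peg3 and -0.81 to 0.77 in Plagl1, and the maternal minus the paternal median from -0.27 to 0.33, with 0.03 as reported. The cause of these shifts was not tested. A fit without a library assumes that the lone sample varies like the other group. The replicate numbers share only a number: deviations of equal numbers correlated at -0.25 across genes. Pairing them crosswise, chosen after seeing the data, called 4176 genes and 4 of the 10. Dlk1 had the fewest counts, 27 to 80 a library.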

Other observations

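Dlk1 resembles the ligands of Notch receptors, and a list of 9 genes of Notch signalling and adipocyte formation was read beside it. Of the 9, all tested, 1 rose, 0 fell and 8 did not pass (median log2 fold change 0.45), where 2.79% of all tested genes rose. The gene that rose was Sox9, a transcription factor of progenitor and cartilage cells, named after its values were seen, with 7.42 and 12.1 CPM in Carm1 mutant hearts against 2.80 and 3.12 CPM in WT hearts (edgeR adjusted p = 0.0228); it was not called without mutant replicate 2. Notch1, a receptor also chosen after its values were seen, had 78.6 and 53.1 CPM in mutant hearts against 23.7 and 53.2 CPM in WT hearts. The antisense transcript of Igf2, Igf2os, chosen in the same way, had 56 and 21 counts in mutant hearts against 6 and 22 counts in WT hearts. Scaled for depth that was 2.23 and 1.55 CPM in mutant hearts against 0.343 and 1.12 CPM in WT hearts. Its log2 fold change was 1.36, and it did not pass (edgeR adjusted p = 0.163).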
